A study of Mus musculus with 2 samples.

Results

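The Teashirt genes Tshz1, Tshz2 and Tshz3 were followed through the mesoderm of the mouse pharyngeal apparatus and heart at embryonic day 9.5. They are 3 of the 27998 genes in the count matrices and were chosen by symbol alone, with earlier results of these data known, so that their values are given as descriptions. Each symbol had 1 row in each matrix. Both libraries came from Swiss Webster embryos. All carried Mesp1Cre, a recombinase made by the first mesoderm cells, and a floxed Rosa26-GFP reporter that turns green in cells with a history of Mesp1 expression. Live GFP-positive cells were sorted, and their transcripts were counted from the 3′ end in droplets. The library labelled Ctrl had the genotype Mesp1Cre;Rosa26-GFPflox/+. The library labelled cKO had the genotype Mesp1Cre;Rosa26-GFPflox/+;Tbx1flox/flox and thus carried floxed Tbx1 on both copies in addition. Each genotype had 1 library, pooled from more than 1 embryo and from embryos of both sexes, and by the study's account the cKO embryos had slightly more somites. Genotype, embryo, stage and library therefore cannot be told apart. No difference below has a replicate check, and every interval is a 95% interval that covers counting error only.

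Teashirt proteins are zinc finger transcription factors. The founding gene, teashirt of Drosophila, specifies the trunk and works beside homeotic genes and their Homothorax and Extradenticle cofactors, whose vertebrate relatives are the Meis and Pbx families. The vertebrate proteins also carry an atypical homeodomain and act mainly as repressors, with CtBP among their partners. In mice, Tshz1 is needed for the soft palate and middle ear, which arise around the pharyngeal arches, and Tshz3 for smooth muscle of the ureter, where it acts with Sox9 and Myocd. Tbx1, the floxed gene, encodes a T-box factor of the pharyngeal mesoderm and is a main gene of 22q11.2 deletion syndrome.

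The upstream sequences of Tshz2 and Tshz3 are shown because these 2 members differed in how far they moved between the libraries. Each is the 250 bases before the RefSeq start on the plus strand of GRCm38.p6, chr2:169632259-169632508 for Tshz2 and chr7:36697868-36698117 for Tshz3, with CpG dinucleotides in capitals. The start used in these cells was not measured.
Tshz2: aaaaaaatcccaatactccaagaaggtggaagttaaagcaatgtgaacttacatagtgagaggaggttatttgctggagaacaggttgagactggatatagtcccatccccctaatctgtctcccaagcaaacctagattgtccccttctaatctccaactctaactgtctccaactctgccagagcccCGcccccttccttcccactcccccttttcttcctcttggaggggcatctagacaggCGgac
Tshz3: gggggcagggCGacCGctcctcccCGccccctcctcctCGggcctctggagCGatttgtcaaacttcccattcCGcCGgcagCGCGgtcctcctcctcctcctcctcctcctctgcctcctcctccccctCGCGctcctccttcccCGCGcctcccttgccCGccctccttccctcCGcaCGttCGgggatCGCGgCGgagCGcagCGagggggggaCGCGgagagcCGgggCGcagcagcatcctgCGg
The windows are of different kinds. The Tshz3 window held 27 CpG dinucleotides and 74.0% G and C, and 8.56% of the 32851 upstream windows of this length in the RefSeq table held as many CpG. The Tshz2 window held 2 CpG and 48.8% G and C, and 81.2% of windows held as many. The letters GGTGTGA, a core that T-box factors bind, were found on neither strand of the windows of Tshz2 and Tshz3, and on either strand of 3.33% of all windows. E-boxes (CANNTG), which bHLH factors such as the myogenic regulators bind, were likewise absent from both and present in 66.2% of all windows. No match says only that these letters are not in these windows. No window for Tshz1 was used here.

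The libraries held 7418 and 10281 cell barcodes with 132017331 and 162874391 unique molecular identifiers (UMIs), in the order Ctrl and cKO as throughout, and 6591 and 8969 cells were kept, with medians of 16854 and 14189 UMIs. The libraries shared 15 barcodes, 11 of them among kept cells. Clustering without the Teashirt, Hox and Tbx1 genes gave 26 clusters, of which 19 took a name from marker genes. The floxed gene was higher under its label over all kept cells, at 26.4 and 44.8 CPM, though not in every population. In cells like the multilineage primed progenitors of the cardiopharyngeal mesoderm (MLP-like), Tbx1 stood at 59.9 and 114 CPM, which are counts scaled to 1e6 UMIs of the population, with a log2 ratio of 0.93 (0.82 to 1.04). MLP-like clusters were named by 8 of 12 listed markers, Tbx1, Aplnr, Nrg1, Irx1, Irx2, Wnt5a, Grem1 and Six2. The other listed markers, Isl1, Fgf10, Mpped2 and Nkx2-5, did not pass in these clusters. The markers that named BrM-like clusters included Tcf21, Lhx2, Msc, Myf5, Ebf1 and Tbx1, so that Tbx1 took part in both names though not in the clustering. Counts of 3′ ends do not separate recombined from intact Tbx1 transcripts, so this gene does not check the labels, and lower or higher always means lower or higher under the cKO label.

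In GRCm38, the RefSeq table places Tshz1 (ENSMUSG00000046982) on chromosome 18 from 84011627 to 84087708, Tshz2 (ENSMUSG00000047907) on chromosome 2 from 169632509 to 170072751, and Tshz3 (ENSMUSG00000021217) on chromosome 7 from 36698118 to 36773553. No other gene of the table overlaps Tshz1. Tshz2 overlaps A630075F10Rik, AY702102 and Gm34344, and Tshz3 overlaps Gm36722, so counts from shared stretches of these genes are uncertain.

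Over all kept cells, Tshz1 fell from 94.1 to 40.2 CPM (11052 and 5496 UMIs), which is 2.34-fold lower in the library labelled cKO (2.26 to 2.42). Tshz3 fell from 25.5 to 10.6 CPM, 2.41-fold lower (2.26 to 2.57). Tshz2 stood at 77.6 and 62.2 CPM, 1.25-fold lower (1.21 to 1.29). Thus 2 of the 3 members were at least 2-fold lower, against 0.829% of the 7840 genes tested, for which either library had to reach 10 CPM and 30 UMIs. The median log2 ratio of those genes was −0.11, beside −0.32 for Tshz2. In sums over cells, fewer expressing cells and less RNA per cell cannot be told apart.

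In the library labelled Ctrl, Tshz1 was a gene of the somites and of Hox-positive mesoderm. Among the named populations its level was highest in sclerotome-like cells at 145 CPM (135 to 156), which are precursors of the vertebrae, in dermomyotome-like cells at 132 CPM (119 to 145), which form skin dermis and trunk muscle, and in MLP-like cells at 125 CPM (119 to 130). Sclerotome-like and dermomyotome-like cells overlapped within counting error, as did dermomyotome-like and MLP-like cells. Posterior second heart field cells (pSHF-like), which build the venous pole, followed at 111 CPM (106 to 115), and foregut mesenchyme-like cells at 95.8 CPM. Septum transversum-like cells at 80.5 CPM and sinus venosus-like cells at 77.4 CPM did not differ beyond counting error. Levels were lower in somatic mesoderm and anterior second heart field cells (SoM/aSHF-like) at 41.2 CPM and in branchiomeric muscle progenitor cells (BrM-like) at 39.0 CPM, another pair that overlapped. Endothelium-like and cardiomyocyte-like cells were lowest, at 24.7 and 24.3 CPM.

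Tshz2 was ordered differently. BrM-like cells, which give jaw and facial muscles, were highest at 142 CPM (135 to 149) and overlapped with MLP-like cells at 131 CPM (125 to 137). SoM/aSHF-like and septum transversum-like cells followed at 116 and 110 CPM, and the somites were low, with 37.2 CPM in sclerotome-like and 13.7 CPM (9.91 to 18.6) in dermomyotome-like cells. Among the named populations the quotient of Tshz1 and Tshz2 was highest in dermomyotome-like cells, with 9.60 Tshz1 UMIs per Tshz2 UMI (6.97 to 13.5), and lowest in BrM-like cells, with 0.275 (0.248 to 0.306). This quotient is taken inside 1 library and does not depend on scaling between libraries.

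Among the named populations Tshz3 was highest in MLP-like cells at 39.2 CPM (36.1 to 42.4) and overlapped there with foregut mesenchyme-like cells at 33.0 CPM. The next populations down to BrM-like cells at 13.2 CPM each overlapped with their neighbour. Endothelium-like, sclerotome-like and cardiomyocyte-like cells held 9.15, 9.06 and 4.08 CPM. Erythroid-like cells, which should lack all of these genes and were found in the library labelled cKO only (151 cells), served as a rough guide to free RNA there. Their median of 25038 UMIs was above that of the other named populations, so the same free RNA per cell gives a lower CPM in them. No such guide was available for the library labelled Ctrl. The erythroid-like cells held 3 Tshz1, 8 Tshz2 and 1 Tshz3 UMIs in 3956751, and the 3 Tshz1 UMIs amount to 0.758 CPM.

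**Figure D1:**
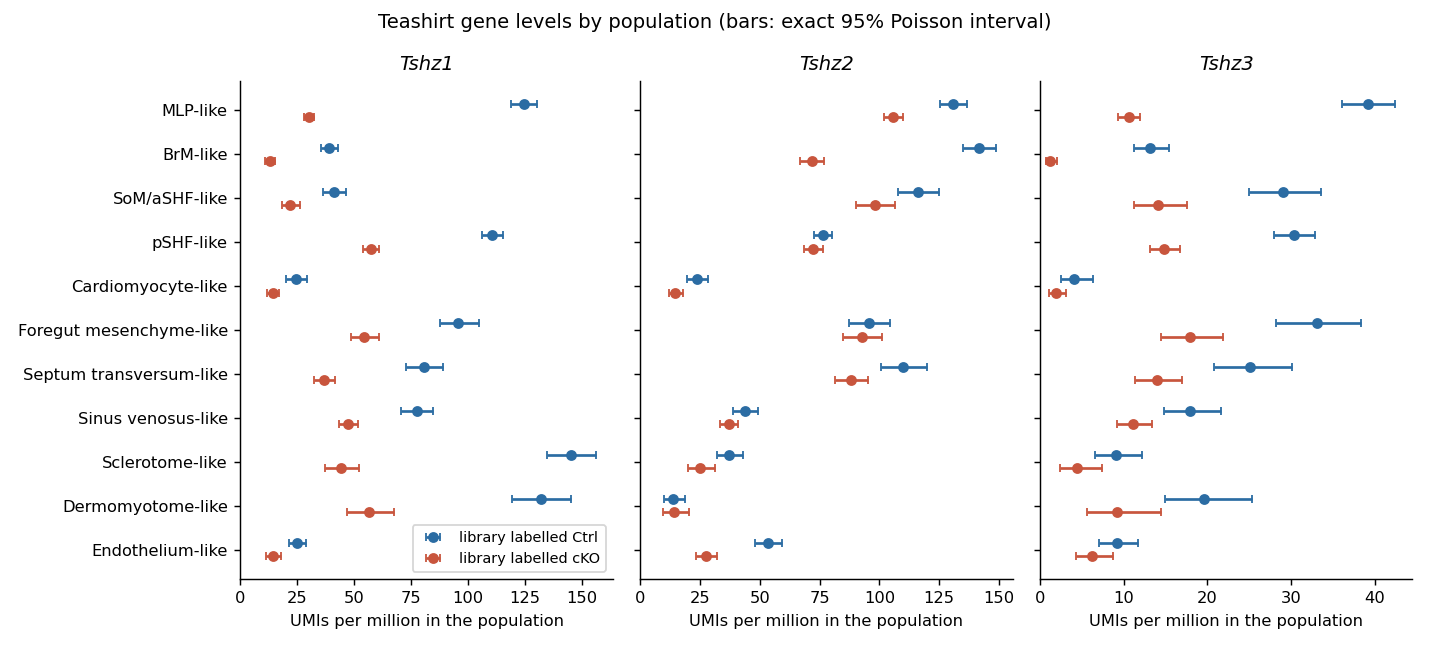
Level of each Teashirt gene (x axis, CPM) in the 11 named populations with at least 50 cells in both libraries (y axis), blue for the library labelled Ctrl and red for cKO, with exact 95% Poisson intervals. The red points of Tshz1 and Tshz3 lie left of the blue points in all 11 populations, while those of Tshz2 lie close to them in most.

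The order changed in the library labelled cKO. MLP-like cells moved from the third to the seventh place for Tshz1, at 30.1 CPM (28.0 to 32.4), and from the first to the sixth for Tshz3, at 10.6 CPM (9.36 to 12.0). For Tshz2, MLP-like cells took the first place at 106 CPM (102 to 110), and BrM-like cells went from the first to the sixth at 71.7 CPM (66.9 to 76.8). BrM-like cells took the last place for both Tshz1, at 12.9 CPM (10.9 to 15.2), and Tshz3, at 1.21 CPM (0.660 to 2.03), each overlapping with cardiomyocyte-like cells. Of the places named, the first for Tshz2 overlapped with SoM/aSHF-like cells, and the sixth for Tshz2 and for Tshz3 with a neighbour.

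In MLP-like cells, which are held to feed several lineages of the cardiopharyngeal mesoderm, Tshz1 and Tshz3 were among the genes with the lowest ratios, and Tshz2 was not. The population had 874 and 1525 cells. Tshz1 fell from 125 to 30.1 CPM, or from 1938 to 738 UMIs, 4.13-fold lower (3.80 to 4.51). Tshz3 fell from 39.2 to 10.6 CPM, or from 610 to 260 UMIs, 3.69-fold lower (3.19 to 4.29). Tshz2 stood at 131 and 106 CPM, 1.24-fold lower (1.17 to 1.31), beside a median log2 ratio of −0.12 over all genes tested. In this population 46 of the 7714 genes tested had a ratio as low as that of Tshz1 and 56 one as low as that of Tshz3, whereas 32.4% had one as low as that of Tshz2. At least 2-fold lower were 3.15% of the genes tested in MLP-like cells and 2 of the 3 members. The MLP-like population comprised 2 clusters, both led by Irx1 and separated by Otor or Ebf2 among their leading genes. Tshz1 fell by 2.12 and 1.99 on the log2 scale in these, and Tshz3 by 1.93 and 1.85.

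In MLP-like cells the quotient of Tshz1 and Tshz3 differed little between the libraries, and those with Tshz2 differed more. MLP-like cells held 0.951 Tshz1 UMIs per Tshz2 UMI in the library labelled Ctrl (0.894 to 1.01) and 0.285 in the library labelled cKO (0.262 to 0.309). Tshz3 UMIs per Tshz2 UMI went from 0.299 (0.273 to 0.328) to 0.100 (0.0880 to 0.114). Tshz1 UMIs per Tshz3 UMI were 3.18 (2.90 to 3.49) and 2.84 (2.46 to 3.28), whose intervals overlap. In BrM-like cells, by contrast, Tshz1 UMIs per Tshz3 UMI went from 2.96 (2.46 to 3.58) to 10.7 (6.19 to 20.1). Since both genes of each quotient were counted in the same cells, no choice of scaling enters.

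In BrM-like cells the difference in Tshz2 was larger than in MLP-like cells. The population had 664 and 786 cells, and Tbx1 stood there at 113 and 102 CPM. Tshz3 went from 153 to 14 UMIs, or from 13.2 to 1.21 CPM, 10.9-fold lower (6.31 to 20.4). The lower of these levels, 1.21 CPM (0.660 to 2.03), overlapped with the 0.253 CPM (0.00640 to 1.41) of erythroid-like cells, and the log2 ratio was −3.45 here and −2.81 in the first clustering pass, so its size is uncertain. Tshz1 went from 453 to 150 UMIs, 3.02-fold lower (2.50 to 3.65). Tshz2 went from 142 to 71.7 CPM, 1.98-fold lower (1.82 to 2.15), so that its interval spans the 2-fold line. In this population 4.52% of the 7656 genes tested were at least 2-fold lower, and 27 genes had a ratio as low as that of Tshz3, 138 as low as that of Tshz1 and 363 as low as that of Tshz2. The log2 ratio of Tshz2 was higher in MLP-like than in BrM-like cells by 0.67 (0.53 to 0.82), that of Tshz3 by 1.56 (0.75 to 2.38), and that of Tshz1 was lower in MLP-like cells by 0.45 (0.16 to 0.75 in size, approximate intervals from the 4 counts). The sizes of these differences depend on the setting. In the first clustering pass, MLP-like and BrM-like cells had −0.58 and −0.81 for Tshz2 and −2.26 and −2.81 for Tshz3. The order for Tshz1 turned among Y-positive cells (−1.70 and −1.75) and thinned cells with no Hox UMI (−1.32 and −1.50), and held in the other settings. Of the clusters that form the BrM-like population, the one led by Nkx2-3 and Tlx1 went from 184 to 83.3 CPM of Tshz2 and from 55.0 to 12.6 CPM of Tshz1. The one led by Col25a1 and Lhx2 went from 110 to 62.6 CPM of Tshz2 and from 27.1 to 13.2 CPM of Tshz1.

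**Figure D2:**
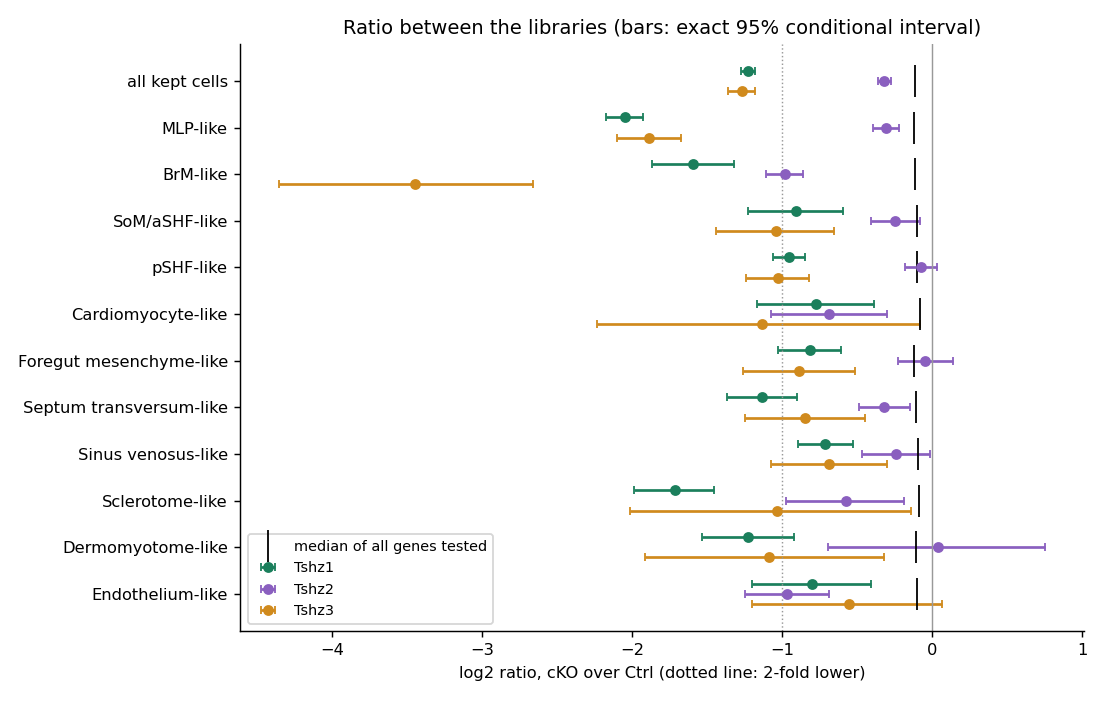
Log2 ratio of the library labelled cKO over the library labelled Ctrl (x axis) for Tshz1, Tshz2 and Tshz3 over all kept cells and in the 11 populations (y axis), with exact 95% conditional intervals, and in black the median of all genes tested. Tshz1 and Tshz3 lie left of the black mark everywhere. Tshz1 lies farthest in MLP-like (−2.05), sclerotome-like (−1.71) and BrM-like cells (−1.59), Tshz3 in BrM-like (−3.45) and MLP-like cells (−1.89), and Tshz2 lies near it except in BrM-like, endothelium-like, cardiomyocyte-like and sclerotome-like cells.

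The members were followed through all 11 populations. Tshz1 was lower beyond counting error in 11 of the 11 populations, with log2 ratios from −2.05 to −0.71, and Tshz3 in 10 of 11, with ratios from −3.45 to −0.56, endothelium-like cells being within counting error (−1.20 to 0.07). Tshz2 was lower beyond counting error in 8 of the 11 populations, with ratios from −0.98 to 0.04. Being lower in value in all 11 populations, within counting error or beyond it, is common, since 26.0% of the 9369 genes with at least 10 UMIs in a library in each population were. The share of genes lower beyond counting error was not taken, so it cannot be set beside the counts above. In foregut mesenchyme-like cells Tbx1 was at 0.782 and 0.922 CPM, and Tshz1 was 1.76-fold lower (1.52 to 2.04) and Tshz3 1.85-fold lower (1.43 to 2.40). Septum transversum-like cells, with Tbx1 at 0.644 and 0.838 CPM, had 2.19-fold lower Tshz1 (1.87 to 2.57) and 1.80-fold lower Tshz3 (1.36 to 2.37). In pSHF-like cells Tshz1 was 1.94-fold lower (1.80 to 2.09) and Tshz3 2.04-fold lower (1.76 to 2.37), where 0.671% of genes tested were at least 2-fold lower, and Tshz2 differed by 1.05-fold (0.979 to 1.14).

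The ratios in MLP-like and BrM-like cells were compared with those of the 9 other populations. The log2 ratio of Tshz1 in MLP-like cells was lower beyond the approximate counting interval than in 9 of the 9 populations other than BrM-like, by 0.33 to 1.34. The nearest was the sclerotome-like population, where Tshz1 went from 145 to 44.3 CPM, 3.28-fold lower (2.74 to 3.96). The sclerotome-like cells of the libraries differed in sex, with 221 and 14 Xist-positive and 30 and 141 Y-positive cells, and Tshz1 was 4.82-fold lower (2.33 to 12.0) in the former and 2.56-fold lower (1.82 to 3.57) in the latter. The former ratio rests on 7 UMIs under the cKO label. By the embryo number of the study each sex of a library came from 1 embryo, so sex and embryo cannot be told apart here. Tshz3 in MLP-like cells was lower than in 7 of 9, and Tshz2 lower than in 2, within counting error of 6 and higher than in 1. Tshz1 in BrM-like cells was lower than in 7 of 9, with a difference from sclerotome-like cells of 0.12 (−0.25 to 0.49). Tshz3 in BrM-like cells was lower than in 9 of the 9 others, by 2.31 to 2.89, and Tshz2 in BrM-like cells was lower than in 7 of 9. The exceptions for Tshz2 were endothelium-like and cardiomyocyte-like cells, where Tshz2 was 1.95-fold lower (1.61 to 2.37) and 1.61-fold lower (1.23 to 2.11).

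Of the 24 clusters with at least 50 cells in both libraries, one without a name, led by Gm14226, Gal and Hoxc4, had the highest Tshz1, at 160 and 103 CPM, though under the Ctrl label its interval overlapped with those of the sclerotome-like cluster and of a cluster led by Cpa1 and Maf. In the library labelled Ctrl it also had the highest Tshz3, at 41.9 CPM (37.8 to 46.3), which overlapped with both MLP-like clusters, a pSHF-like cluster and the foregut mesenchyme-like cluster. Tshz2 was higher there beyond counting error, at 43.0 and 52.3 CPM, a log2 ratio of 0.28, while it was lower beyond counting error in 12 of the 24 clusters. A cluster led by Cbr3, Lum and Tagln had Tshz1 at 104 and 27.8 CPM and Tshz3 at 20.9 and 4.21 CPM, falls of 1.90 and 2.31 on the log2 scale, and Tbx1 there was at 44.1 and 118 CPM. In a small cluster led by Itga4, Lhx9 and Tdo2, Tshz1 was at 35.6 and 31.4 CPM, within counting error.

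Fewer MLP-like cells held a UMI of each Teashirt gene in the library labelled cKO, and positive cells held fewer Tshz1 UMIs. Shares were taken after each cell was thinned to 5000 UMIs, which left out 7 and 9 MLP-like cells. A Tshz1 UMI was found in 41.6% (38.3 to 45.0) of 867 and 12.7% (11.1 to 14.5) of 1516 MLP-like cells, with 1.46 and 1.15 UMIs per positive cell. A Tshz3 UMI was found in 16.0% (13.7 to 18.6) and 5.28% (4.21 to 6.52), with 1.15 per positive cell in both libraries, and a Tshz2 UMI in 46.8% (43.5 to 50.2) and 37.8% (35.3 to 40.3). At this depth the Tshz3 UMIs per positive cell lie near their floor, so the equal values do not show an equal level per positive cell. Without thinning the shares were 71.5% and 32.1% for Tshz1, 78.3% and 71.0% for Tshz2, and 43.1% and 14.6% for Tshz3. The lowest shares in endothelium-like, cardiomyocyte-like and erythroid-like cells served as background. They were 8.72% (endothelium-like) for Tshz1, 7.52% for Tshz2 and 0.752% for Tshz3 (both cardiomyocyte-like) in the library labelled Ctrl, and 0.662% for each gene in the erythroid-like cells of the library labelled cKO. Median UMI counts were 16720 and 15030 in MLP-like cells, 16628.5 in endothelium-like and 16676 in cardiomyocyte-like cells of the library labelled Ctrl, and 25038 in erythroid-like cells.

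In BrM-like cells the thinned share of Tshz1 went from 19.3% (16.4 to 22.6) to 5.12% (3.68 to 6.90) and that of Tshz2 from 48.7% (44.8 to 52.6) to 27.5% (24.4 to 30.8). Tshz3 went from 7.46% (5.57 to 9.74) of 657 cells to 3 of 782 cells, 0.384% (0.0792 to 1.12), which is not above the background share and is therefore not read as expression. The Tshz1 share of BrM-like cells under the cKO label was above the background share, that of erythroid-like cells. It was below the 8.49% of endothelium-like and 6.90% of cardiomyocyte-like cells of the same library, with overlapping intervals. Whether it is read as expression thus depends on the population taken as background. In pSHF-like cells Tshz1 went from 38.9% to 21.7%, and Tshz2 differed less, with 31.8% (29.1 to 34.6) in the library labelled Ctrl and an overlapping interval of 27.4 to 32.7% in the other.

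Cells with UMIs of several Teashirt genes were more frequent in the library labelled Ctrl. Of the thinned MLP-like cells in that library, 28.7% held none of the 3 genes, 25.1% held 2 and 4.04% held all 3. In the library labelled cKO, 51.3% held none, 6.60% held 2 and 4 cells, or 0.264%, held all 3. Tshz1 and Tshz2 met in 186 and 60 cells, which was 1.10 and 0.823 times the number that the product of their shares gives, both within counting error of that number. In BrM-like cells of the library labelled Ctrl, 81 cells held both, 1.31 times that number, and 36 held Tshz2 and Tshz3, 1.51 times. Both lay beyond the interval of the joint count, which takes the product as fixed. The 2 clusters of this population differed in the levels of all 3 genes under the Ctrl label, and the part of this in the joint counts was not tested. Among BrM-like cells, 1.67% of 657 and 0 of 782 held all 3, where a count of 0 allows a share of up to 0.384% with a UMI of each gene at this depth.

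**Figure D3:**
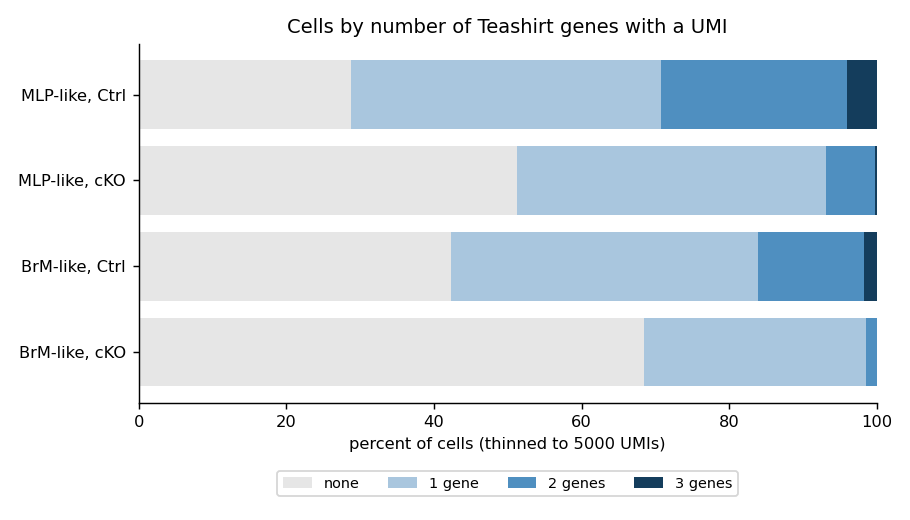
Percent of MLP-like and BrM-like cells, thinned to 5000 UMIs (x axis), with a UMI of none, 1, 2 or 3 Teashirt genes, per library (y axis). The pale part without any of the genes grows from 28.7% to 51.3% in MLP-like and from 42.3% to 68.4% in BrM-like cells, and the dark part with 3 genes shrinks.

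Cells were next split by whether they held a Tbx1 UMI after thinning. In MLP-like cells of the library labelled Ctrl, Tshz1 was at 146 CPM (124 to 170) in the 213 cells with Tbx1 and at 114 CPM (103 to 126) in the 654 cells without. In the library labelled cKO it was at 28.3 CPM (22.4 to 35.2) in 566 cells with and 29.9 CPM (25.2 to 35.2) in 950 cells without. Tshz1 in the library labelled Ctrl was thus 1.28 times as high in MLP-like cells with Tbx1 (1.05 to 1.54), and in BrM-like cells it was lower with Tbx1, 0.676 times (0.476 to 0.947). The other ratios of cells with and without Tbx1 were within counting error in both populations and libraries. The libraries were farther apart for Tshz1 and Tshz3 in either kind of MLP-like cell. In BrM-like cells with Tbx1, Tshz3 had 20 UMIs in 269 cells and 0 UMIs in 266 cells. Thinning leaves many Tbx1-expressing cells without a Tbx1 UMI, so cells without one are not cells without the gene.

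Hox genes, which mark the position of mesoderm along the body axis, followed Tshz1 and Tshz3 across clusters. Over the 24 clusters of the library labelled Ctrl, the log2 level of Tshz1 (after adding 5 CPM) and that of all Hox genes summed had a Pearson r of 0.88 and a Spearman rho of 0.81. Tshz3 had an r of 0.78 with summed Hox and 0.77 with Tshz1, Tshz2 had 0.29 and 0.26, and in the library labelled cKO the values for Tshz1, Tshz3 and Tshz2 with summed Hox were 0.87, 0.91 and 0.49. With Tbx1, Tshz1 had an r of 0.04 and Tshz2 one of 0.58 in the library labelled Ctrl. Clusters share a library and its depth, so these are descriptions.

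**Figure D4:**
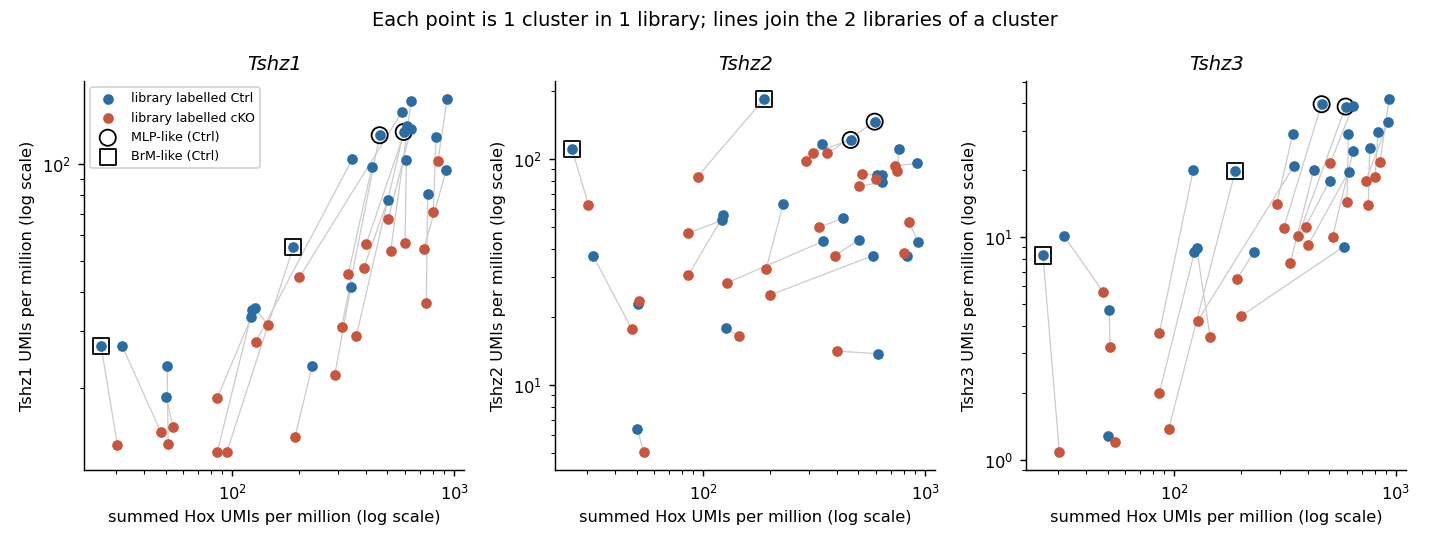
Level of each Teashirt gene (y axis, CPM, log scale) against the summed level of all Hox genes (x axis, CPM, log scale), with 1 point per cluster and library, blue for Ctrl and red for cKO, lines joining the same cluster, and MLP-like and BrM-like clusters of the library labelled Ctrl ringed or boxed. Tshz1 and Tshz3 rise with summed Hox in both libraries (r of 0.88 and 0.78 in Ctrl), and in each cluster the red point of Tshz1 and Tshz3 lies below the blue one it is joined to.

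Hox levels also differed between the libraries within MLP-like cells. The MLP-like clusters went from 592 to 362 CPM and from 461 to 311 CPM of summed Hox. Of the 39 Hox genes, 9 were measured in MLP-like cells and 4 of them were at least 2-fold lower, against 3.15% of all genes tested, with a median log2 ratio of −0.96 against −0.12 over all genes tested. Among them, Hoxb5 fell by 3.26, Hoxa5 by 2.85 and Hoxb4 by 1.62 on the log2 scale. Of the other measured Hox genes, Hoxa2 was higher, with a log2 ratio of 0.52 (0.36 to 0.69), and Hoxb2 stood at 0.05 (−0.02 to 0.13). In pSHF-like cells 10 Hox genes were measured and none was past 2-fold, where 51 of 7605 genes tested were at least 2-fold lower and 35 higher. Sclerotome-like cells had a lower median than MLP-like cells, −1.62 over 11 measured Hox genes, and summed Hox of 580 and 200.5 CPM. In that population 8 of the 11 were at least 2-fold lower, against 189 of 7528 genes tested.

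MLP-like cells were split by their number of Hox UMIs after thinning, a division made after the values were seen. Cells with no Hox UMI made up 19.8% and 29.0% of MLP-like cells, and cells with 3 or more 45.3% and 26.3%. Tshz1 rose with Hox content in the library labelled Ctrl, from 44.2 CPM in cells with no Hox UMI over 117 CPM with 1 or 2 to 160 CPM with 3 or more. In the library labelled cKO it went from 17.7 over 29.5 to 41.6 CPM. Within every class Tshz1 was lower in the library labelled cKO, by 1.32 with no Hox UMI, 1.98 with 1 or 2 and 1.94 with 3 or more on the log2 scale. Tshz3 was lower by 1.11, 1.47 and 1.59 in the same classes, and Tshz2 by 0.34, 0.30 and 0.25, the first of these within counting error. In BrM-like cells with no Hox UMI, which were 74.1% and 83.1% of the population, Tshz1 went from 28.7 to 10.2 CPM, Tshz2 from 129 to 64.3 CPM, and Tshz3 from 23 UMIs to 1 UMI, a log2 ratio of −4.94 (−10.3 to −2.32).

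**Figure D5:**
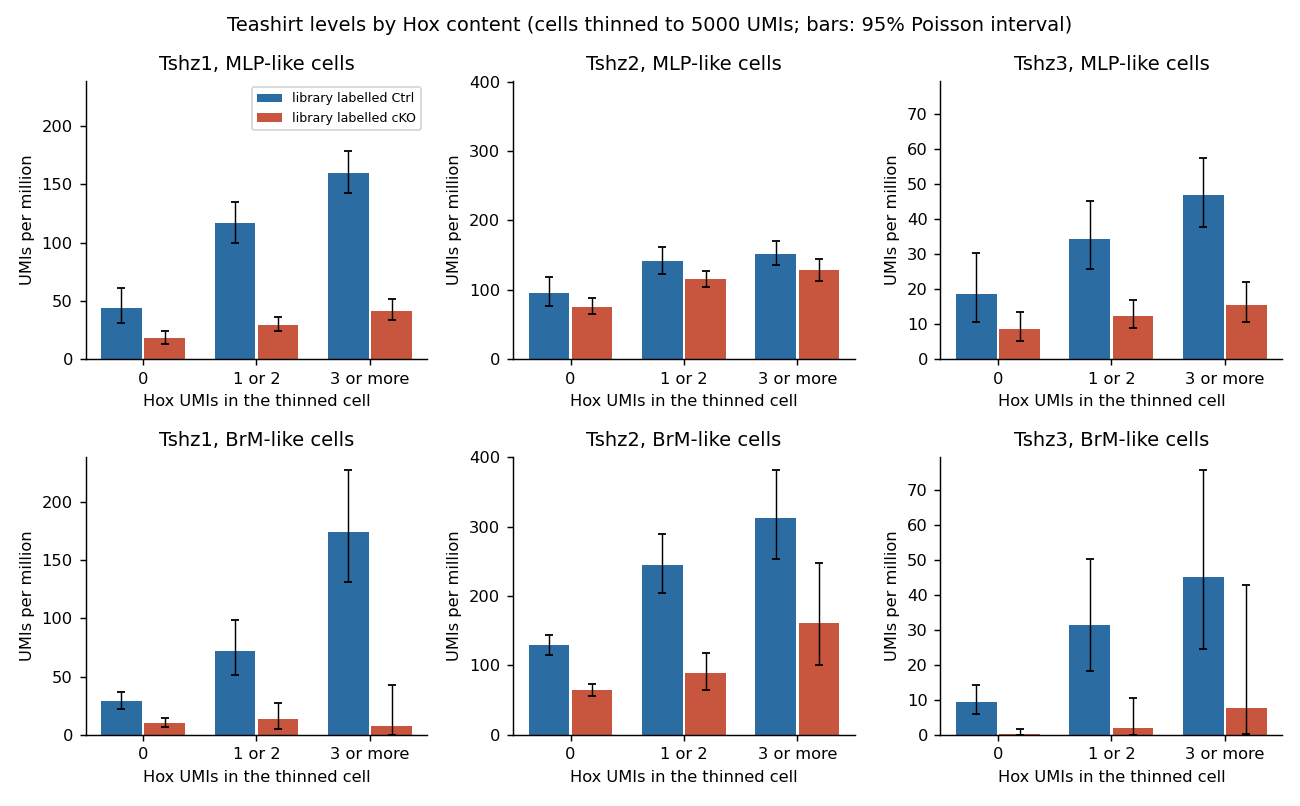
Level of each Teashirt gene (y axis, CPM) in MLP-like (top) and BrM-like cells (bottom) with 0, 1 or 2, and 3 or more Hox UMIs (x axis) after thinning to 5000 UMIs, blue for the library labelled Ctrl and red for cKO, with 95% Poisson intervals. Blue bars of Tshz1 climb with Hox content from 44.2 to 160 CPM in MLP-like cells, and the red bars stay below them in each class.

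The genes with a profile most like Tshz1 across the 24 clusters of the library labelled Ctrl, among 9649 compared, included Hoxb3 (r = 0.90) and Hoxa3 (r = 0.86), which pattern the hindbrain and posterior arches, Zfhx4 (r = 0.89), another zinc finger homeodomain gene, and Ptprk (r = 0.86), a receptor tyrosine phosphatase. In the library labelled cKO these r values lay between 0.75 and 0.85. Those most like Tshz2 were Gtf2i, Rnaseh2c, Ppp1r14a, Frem1 and Csnk1g2 (r from 0.76 to 0.78), and those most like Tshz3 were Hnrnpu, Prpf8, Efna4, Ehmt1 and Fam168b (r from 0.84 to 0.86). Under the cKO label their r values were lower, from 0.43 to 0.66 for Tshz2 and from 0.53 to 0.82 for Tshz3. With Spearman's correlation, 2 of the 5 genes for Tshz1, 2 of 5 for Tshz2 and 0 of 5 for Tshz3 came out again, so the lists of all 3 members depend on the measure.

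Other zinc finger homeobox genes moved in part. Of 11 listed, 8 were measured in MLP-like cells and 2 were at least 2-fold lower, against 3.15% of all genes tested. These were Zfhx3, a large factor best known in neurons, from 88.0 to 34.4 CPM, and Zfhx2, from 11.6 to 5.71 CPM. In BrM-like cells 9 were measured, with Zfhx2 and Zfhx3 lower by 1.35 and 1.19 on the log2 scale, against 4.52% of genes at least 2-fold lower, and Zfhx4 higher, from 11.4 to 41.6 CPM. That was 1 gene past 2-fold upwards, against 1.20% of all genes tested there. Zeb1 and Zeb2, repressors that also bind CtBP, stayed within 2-fold in both populations.

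Of 7 corepressors and partners, 6 were measured in MLP-like cells. Sox9, a partner of Tshz3 in the ureter, was 3.32-fold lower at 133 and 40.2 CPM, which made 1 of 6 against 3.15% of all genes, and Ctbp1, Ctbp2, Hdac1, Hdac2 and Apbb1 were within 2-fold. In BrM-like cells none of 6 was past 2-fold, against 4.52% of genes lower and 1.20% higher, and Sox9 was at 46.3 and 50.3 CPM. Among the Pbx and Meis genes 6 of 7 were measured, with a median log2 ratio of −0.43 in both populations, and none was past 2-fold in BrM-like cells.

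Of 8 smooth muscle genes listed, 4 were measured in MLP-like cells and 2 were at least 2-fold higher, against 0.635% of all genes tested, with a median log2 ratio of 1.26. Within 2-fold, Des had a log2 ratio of 0.96 and Bmp4 one of −0.47. Acta2, smooth muscle actin, went from 6.94 to 27.0 CPM, and Tagln, an actin-binding protein, from 22.2 to 65.5 CPM. In BrM-like cells, where 1.20% of genes were at least 2-fold higher and 4.52% at least 2-fold lower, Acta2 went from 7.32 to 34.7 CPM and Bmp4, a signal upstream of Tshz3 in the ureter, fell by 1.13 on the log2 scale. Myocd was below the filter in both.

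Splitting cells by sex-linked transcripts gave the same directions over all kept, MLP-like and BrM-like cells, but not everywhere. In pSHF-like cells the log2 ratio of Tshz2 was 0.02 (−0.13 to 0.16) among cells with Xist but −0.24 (−0.43 to −0.06) among those with Y-linked UMIs, and its signs also differed in foregut mesenchyme-like and dermomyotome-like cells, as did those of Tshz3 in sclerotome-like cells. In MLP-like cells with Xist and no Y-linked UMI (425 and 760 cells), Tshz1 was at 144 and 26.5 CPM, and in those with Y-linked and no Xist UMIs (367 and 541 cells) at 107 and 32.9 CPM. The log2 ratios, −2.45 and −1.70, differed by 0.74 (0.48 to 1.01 in size). Tshz3 had ratios of −2.10 and −1.61, and Tshz2 of −0.48 and −0.11 (−0.25 to 0.03), so that Tshz2 in Y-positive MLP-like cells was within counting error. In BrM-like cells Tshz1 had −1.45 and −1.75, Tshz2 −0.88 and −1.30 and Tshz3 −3.28 and −4.08. As described above for sclerotome-like cells, each sex of a library stands for 1 embryo, so values by sex are also values by embryo. The difference of 0.74 for Tshz1 in MLP-like cells thus lay between pairs of embryos, beyond counting error. Sex and embryo cannot be told apart in it, and the spread between embryos of 1 sex remains unknown.

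Markers of other cell types were compared in the same populations. In MLP-like cells 2 and 0 of 5 neural crest markers were at 0 and the 5 summed to 1.80 and 5.51 CPM, the 5 neural markers summed to 11.9 and 16.2 CPM, and the 5 epithelial markers to 45.2 and 63.2 CPM. In BrM-like cells neural crest markers summed to 4.13 and 2.07 CPM, neural markers to 9.30 and 5.78 CPM, and epithelial markers to 13.4 and 28.4 CPM. Of 4 macrophage markers, 4 and 3 were at 0 in both populations. The 7 erythroid markers summed to 0.578 and 173 CPM in MLP-like and 1.29 and 166 CPM in BrM-like cells, with 3 and 0 of them at 0 in MLP-like and 3 and 1 in BrM-like cells. The part of these markers in the results was not tested. The erythroid-like cells themselves held at most 8 UMIs of any Teashirt gene.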

How the data were processed

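The deposited values are raw UMI counts per gene and cell barcode, which the authors made with Cell Ranger 3.1.0 on the mm10 mouse genome, per the submitters' processing notes. They hold the barcodes called as cells, with no normalization. Cells with at least 1000 genes and at most 10% mitochondrial UMIs were kept, which left out 411 and 508. Scrublet (scanpy 1.11.5) called 0% of doublets by its own threshold in the library labelled Ctrl, so the highest-scoring 0.8% per 1000 barcodes were removed, 416 and 804 cells. Clustering used Seurat 5.3.0 (R 4.3.3), 2000 variable genes, 30 dimensions, reciprocal PCA integration and resolution 1, without 306 genes (the Teashirt genes, the lists described, Hox, 17 genes of the study, and mitochondrial, ribosomal, haemoglobin and sex-linked genes) and, in a second pass, without 1588 genes that differed at least 2-fold between libraries in a provisional class.

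Clusters were named from marker lists (at least 3 markers present in 10% of cells and 0.5 above the rest on the log2 scale, more than 50% of a list, at least 1 among the 10 leading genes, and no other list with more of them). The names are rebuilt, may differ from those of the study, and end in -like. Counts were summed per library and population. Levels carry exact Poisson, ratios exact conditional and shares Clopper-Pearson intervals. PCR duplicates are removed by UMIs, and intervals cover counting error only. A count of 0 was limited by 3 counts. Ratio code was tested on simulated data. With 1 library per group, no test was run. Members and lists were chosen with earlier results of these data known. Genes named are the members, the 5 most alike per member across clusters (without mitochondrial, ribosomal, haemoglobin, sex-linked, Gm and Rik genes), and up to 6 per list past 2-fold in MLP-like or BrM-like cells. List genes named within 2-fold, and clusters without a name, were picked after their values were seen. Some genes that this rule names are not reported here. Alternatives covered cell filters, doublets, resolution, integration, the first pass, scaling (median of ratios, TMM of edgeR 4.0.16), equal weight per cell, sex-linked cells, thinning and likeness measures. Promoter and gene tables are RefSeq, GRCm38.p6.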

Additional observations from a re-analysis of the deposited data

Results flagged for a closer look

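Tshz2 moved in opposite directions in 2 clusters, beyond counting error in each. Its log2 ratio of the library labelled cKO over the library labelled Ctrl was 0.28 in the cluster led by Gm14226, Gal and Hoxc4 and −1.14 in the BrM-like cluster led by Nkx2-3 and Tlx1. With 1 library per group the difference was not tested. The clusters contained 415 and 493 cells and 362 and 409 cells.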

How the results depend on the processing

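Over 12 alternative settings, the 9 ratios of the Teashirt genes (over all kept cells, MLP-like and BrM-like cells) gave 105 values. None changed direction, and 38 moved by more than the counting interval. Values over all kept cells cannot change with the clustering settings (both resolutions, no integration, first pass) and say nothing of stability there. Values are log2 ratios in the order named. With a looser cell filter, Tshz1 and Tshz2 in MLP-like cells were −2.24 and −0.41, and with doublets kept −2.19 and −0.43. At resolution 1.5, Tshz2 in MLP-like cells was −0.53, and Tshz1 and Tshz2 in BrM-like cells −1.05 and −0.84. Without integration, Tshz2 in MLP-like cells was −0.57. In the first clustering pass, Tshz1, Tshz2 and Tshz3 in MLP-like cells were −2.46, −0.58 and −2.26, and Tshz1 and Tshz2 in BrM-like cells −1.04 and −0.81. With Xist-positive cells alone, MLP-like values were −2.45, −0.48 and −2.10, and Tshz3 over all kept cells −1.16. With Y-positive cells alone, MLP-like values were −1.70, −0.11 and −1.61, Tshz2 in BrM-like cells −1.30, and Tshz2 and Tshz3 over all kept cells −0.41 and −1.38. With a mean over cells, Tshz1 in BrM-like cells was −1.94 and Tshz2 over all kept cells −0.38. With median-of-ratios factors, all kept cells gave −1.11, −0.21 and −1.16, and Tshz2 in MLP-like cells −0.19. With TMM factors, all kept cells gave −1.07, −0.17 and −1.12, Tshz1 and Tshz2 in MLP-like cells −1.86 and −0.12, and Tshz2 in BrM-like cells −0.83. In thinned cells with no Hox UMI, a setting chosen after seeing the data, Tshz1 and Tshz3 in MLP-like cells were −1.32 and −1.11, and Tshz3 in BrM-like cells −4.94. The cause of these moves was not tested.

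Shares of MLP-like cells with a UMI depend on depth. Without thinning they were 71.5% and 32.1% for Tshz1, 78.3% and 71.0% for Tshz2 and 43.1% and 14.6% for Tshz3. At 10000 UMIs they were 60.4% and 22.9%, 65% and 59.7%, and 30% and 8.86%. Without the filter on low counts, which lets in genes of few UMIs, 2690 genes were at least 2-fold lower and 1663 higher in MLP-like cells, and 2810 and 1829 in BrM-like cells, against 243, 49, 346 and 92 with it. Of the 5 genes most like each member, Spearman's correlation returned 2, 2 and 0, and a pseudocount of 1 CPM returned 2 for Tshz3. No paired analysis was possible because each group had 1 library. Leaving out a library would leave a group with none.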
